A study of Mus musculus with 16 samples.

Results

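The Sh3pxd2a locus on mouse chromosome 19 held a dense run of PPARγ and C/EBPα peaks, and most of its PPARγ peaks carried more PPARγ after rosiglitazone than after DMSO. The peaks were chosen by position: every listed peak whose centre lay in the window chr19:47300000-47580000 of the mm9 build, 280 kb in all. This gave 37 of the 61107 peaks of both lists. They comprised 19 of the 30588 PPARγ peaks and 18 of the 30519 C/EBPα peaks. The locus itself was chosen from these same data as a cluster of peaks that gained PPARγ after rosiglitazone. All ratios between treatments below are therefore descriptions, and none was tested.

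The cells were 3T3-L1 adipocytes, a mouse fibroblast line turned into fat cells in culture, at day 7 of differentiation. One group had received 1 µM rosiglitazone in 0.1% DMSO, its solvent, for 1 h. The other had received 0.1% DMSO without the drug for the same time. Chromatin immunoprecipitation with sequencing (ChIP-seq) counted the DNA fragments bound by PPARγ, C/EBPα, MED1 and CBP, and each mapped fragment is called a tag here. The labels give 2 PPARγ samples per treatment and 1 sample per treatment for each of C/EBPα, MED1 and CBP. Each factor has 1 column per treatment in the deposited lists, and the PPARγ columns do not name a replicate, so no difference between treatments has a replicate check.

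PPARγ, a nuclear receptor that fat cells need to form, binds DNA as a pair with RXR, and rosiglitazone is a synthetic ligand of it. Ligand binding changes the surface of the receptor so that coactivators dock more readily. MED1 is the Mediator subunit that contacts nuclear receptors, and CBP is an acetyltransferase that marks histones at active enhancers. C/EBPα is a basic leucine zipper factor that works beside PPARγ at many fat cell genes. Sh3pxd2a encodes Tks5, also called Fish, a scaffold protein with a PX domain and SH3 domains that Src phosphorylates and that cells need to build podosomes and invadopodia, the actin-rich protrusions that degrade matrix.

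In the RefSeq gene order Sh3pxd2a lies between the protein-coding genes Neurl1a and Stn1, and its span also holds the microRNA gene Mir6995 and the long non-coding RNA genes Gm29834, Gm36885 and Gm52384. That order comes from another build than the peak lists, so peaks were not assigned to exons or introns, and no peak was tied to a gene by more than the window. Whether the window holds the whole of Sh3pxd2a in mm9 was not checked. Transcript levels and histone marks were not analysed here, so whether these peaks act as enhancers was not tested.

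Depth differed between factors. The deposited values are tags scaled by library, called units here. One tag was worth 0.831 units in rosiglitazone and 0.879 in DMSO for PPARγ, and 1.27 and 2.21 for C/EBPα. For MED1 it was worth 7.65 units in rosiglitazone and 3.49 in DMSO, and for CBP 6.06 and 2.21. The rosiglitazone libraries of MED1 and CBP were thus the shallowest, and values near 0 in them rest on a few tags. All intervals below are exact 95% intervals (Clopper-Pearson) from tags. They cover counting error only, with each tag taken as an independent fragment, and the spread between cultures is not in them. ChIP-seq of a cell population cannot tell more bound cells from higher occupancy per cell.

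The PPARγ peaks stood close together. They spanned 215 kb with a median gap of 7.34 kb between neighbouring centres (range 3.57 to 40.8 kb), and the C/EBPα peaks spanned 172 kb with a median gap of 6.66 kb (1.86 to 47.0 kb). With neighbours at most 10 kb apart joined, 12 PPARγ peaks formed one cluster at chr19:47345019-47419303, 74.3 kb long, and 13 C/EBPα peaks formed one at chr19:47345000-47412496, 67.5 kb long. Of the 477 PPARγ clusters of at least 5 peaks in the genome, 3 had 12 peaks or more, this one included, and the most peaks in any was 15. Of the 345 such C/EBPα clusters, 2 had 13 peaks or more, and the most was 18. Since the locus was chosen from these data as a cluster, these counts only describe its size.

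**Figure D1:**
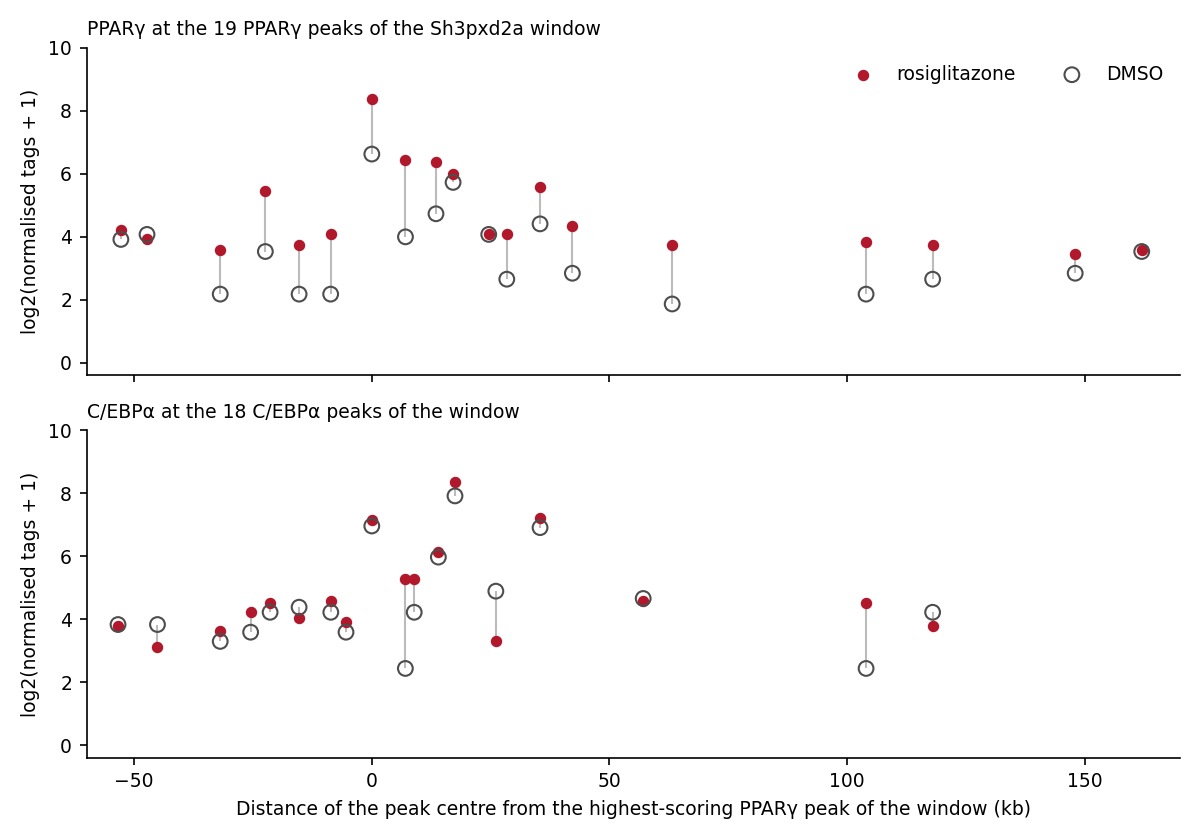
PPARγ at the 19 PPARγ peaks (top) and C/EBPα at the 18 C/EBPα peaks (bottom), as log2 of normalised tags plus 1, against the distance in kb from the highest-scoring PPARγ peak. Filled points are rosiglitazone and open rings are DMSO, 1 column each. The top PPARγ peak stands at 331 units in rosiglitazone and 97.6 in DMSO, while most C/EBPα pairs lie close together.

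Summed over the 19 PPARγ peaks, PPARγ was 831 units in rosiglitazone and 317 in DMSO, from 999 and 360 tags. The ratio was 2.62 (2.32 to 2.97), against 1.52 (1.52 to 1.53) over all other PPARγ peaks. PPARγ was higher in rosiglitazone by any amount at 17 of the 19 peaks, where 70.5% of all PPARγ peaks were, and lower at 2. On the scale log2((rosiglitazone + 1)/(DMSO + 1)), 13 of the 19 were at least 2-fold higher, where 30.0% of all PPARγ peaks were, and none was at least 2-fold lower, where 4.43% of all were. The median was 1.42 in the window and 0.50 over the list. At least 3-fold higher were 7 of the 19, against 14.0% of all PPARγ peaks, and with each log2 ratio centred on the list median 8 of the 19 were at least 2-fold higher, against 15.6% of all. Since the locus was chosen on this contrast, these counts describe it and support nothing further.

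The gain was uneven, and a single peak held much of it. The PPARγ peak at chr19:47376894-47377080, centred at 47.377 Mb, had 331 PPARγ units in rosiglitazone and 97.6 in DMSO (398 and 111 tags), a ratio of 3.39 (2.74 to 4.22). Its difference made up 45.4% of the net 514 units gained over the 19 peaks. The authors' score of 217.9 placed it 39th in the PPARγ list and 3rd on chromosome 19. In PPARγ level it ranked 28th of all PPARγ peaks in rosiglitazone and 159th in DMSO, so it was already among the higher peaks without added ligand.

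A neighbouring pair of peaks came next. The PPARγ peak at chr19:47383979-47384165 (47.384 Mb) had 85.6 PPARγ units in rosiglitazone and 14.9 in DMSO, a ratio of 5.73 (3.41 to 10.2), the highest of the 15 members with at least 20 PPARγ tags. The peak at chr19:47390376-47390562 (47.390 Mb) had 82.3 in rosiglitazone and 25.5 in DMSO, a ratio of 3.23 (2.12 to 5.07). These 2 added 13.8% and 11.1% of the net gain, so the peaks at 47.377, 47.384 and 47.390 Mb accounted for most of it. To the low-coordinate side, the peak at chr19:47354451-47354637 (47.355 Mb) had 42.4 units in rosiglitazone and 10.6 in DMSO, a ratio of 4.02 (2.11 to 8.28). To the high side, the peak at chr19:47412312-47412498 (47.412 Mb) had 46.6 in rosiglitazone and 20.2 in DMSO, a ratio of 2.30 (1.39 to 3.92).

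Other peaks of the cluster differed less between treatments. The PPARγ peak at chr19:47393950-47394136 (47.394 Mb), with 62.4 PPARγ units in rosiglitazone and 51.9 in DMSO, had a ratio of 1.20 (0.843 to 1.72), although its score of 59.0 was the second highest of the 19. The authors' focus ratio, the fraction of a peak's tags that lie where the peak caller expects them, was 0.622 there, against 0.897 at 47.377 Mb. At chr19:47401511-47401697 PPARγ was 15.8 units in both treatments, a ratio of 0.998 (0.496 to 2.02). In contrast, the peak at chr19:47405275-47405461 had 15.8 units in rosiglitazone and 5.28 in DMSO, a ratio of 2.99 (1.15 to 9.16), and that at chr19:47419117-47419303 had 19.1 and 6.16, a ratio of 3.11 (1.29 to 8.57). Peaks with ratios near 1 and near 3 thus stood side by side within the cluster. The interval at 47.394 Mb does not overlap that of its neighbour at 47.390 Mb, 3.23 (2.12 to 5.07). The intervals of the ratios 2.99 and 3.11, from 6 and 7 DMSO tags, do overlap those of 1.20 and 0.998.

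The outer peaks were low. At the low-coordinate end, chr19:47324101-47324287 had 17.5 PPARγ units in rosiglitazone and 14.1 in DMSO, a ratio of 1.24 (0.617 to 2.54), and chr19:47329546-47329732 had 14.1 and 15.8, a ratio of 0.893 (0.432 to 1.84), the lowest among peaks with at least 20 tags. At the high-coordinate end, chr19:47538556-47538742 had 10.8 and 10.6, a ratio of 1.02 (0.431 to 2.46). The other 7 members had 9.98 to 15.8 units in rosiglitazone and 2.64 to 6.16 in DMSO, with ratios from 1.62 to 4.73. They include chr19:47345019-47345205, chr19:47361569-47361755 and chr19:47368230-47368416, which lie inside the cluster. The interval includes 1 at chr19:47345019-47345205, chr19:47495162-47495348 and chr19:47524695-47524881. Each of these 7 was higher in rosiglitazone, but the DMSO values rest on 3 to 7 tags. The 12 peaks of the cluster together had a PPARγ ratio of 2.86 (2.51 to 3.28). The 7 members outside it, a different set from the 7 above, had 1.56 (1.14 to 2.15), close to the other peaks of the list.

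Counting error limits what single peaks show. The interval of the PPARγ ratio lay above the 1.52 of the other peaks at 4 of the 19 members, where 12.6% of all PPARγ peaks met that rule. The 4 were the peaks at 47.355, 47.377, 47.384 and 47.390 Mb. At the window's edges the first PPARγ peak outside on the low side, chr19:47199721-47199907, had 8.31 PPARγ units in rosiglitazone and 7.91 in DMSO, and the first outside on the high side, chr19:47589819-47590005, had 4.99 and 15.8. The outermost C/EBPα members, chr19:47323496-47323726 and chr19:47495179-47495409, had 12.7 C/EBPα units each in rosiglitazone, against 13.2 and 17.7 in DMSO. The first C/EBPα peaks outside, chr19:47251587-47251817 and chr19:47581931-47582161, had 7.64 and 12.7 units in rosiglitazone, against 13.2 and 6.62 in DMSO.

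**Figure D2:**
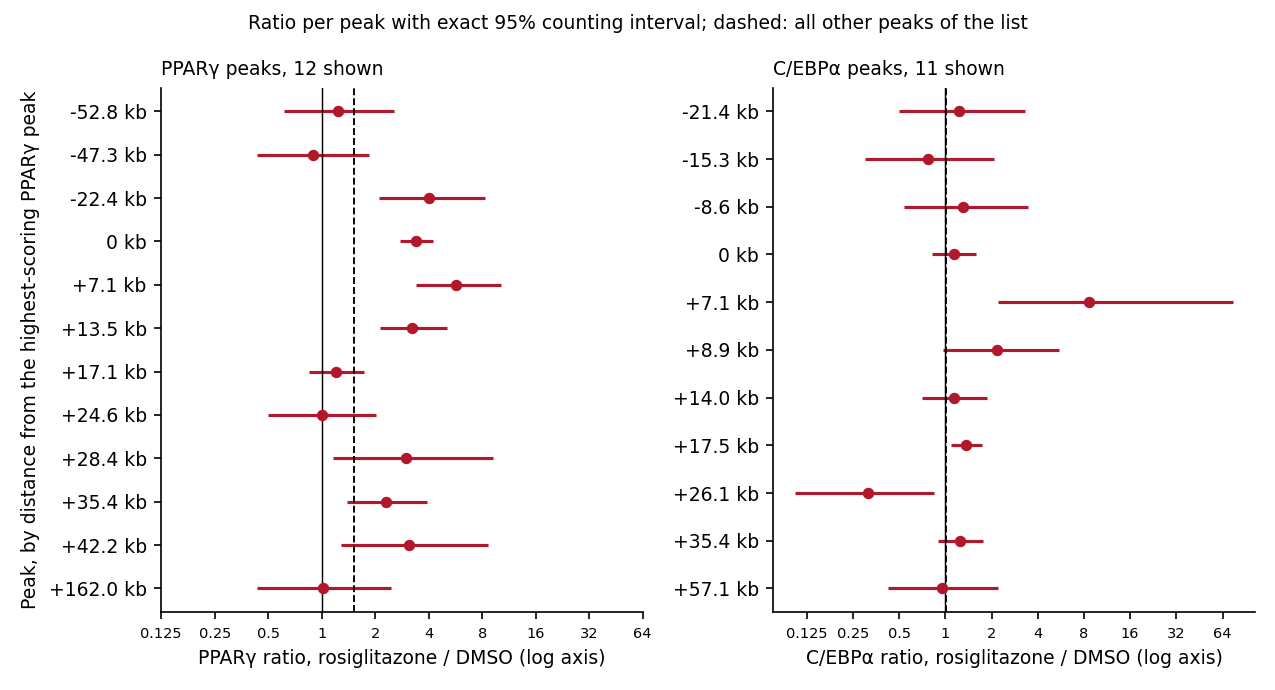
Ratio of rosiglitazone to DMSO with its exact 95% counting interval (log axis) for PPARγ at 12 PPARγ peaks (left) and C/EBPα at 11 C/EBPα peaks (right), named by their distance in kb from the highest-scoring PPARγ peak. The dashed line is the ratio over all other peaks of the list, 1.52 for PPARγ and 1.01 for C/EBPα, and the solid line is 1; 4 PPARγ intervals lie wholly above the dashed line.

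MED1, the Mediator subunit, was also higher at the locus after rosiglitazone. Summed over the 19 PPARγ peaks it was 1270.3 units in rosiglitazone and 559 in DMSO, from 166 and 160 tags, a ratio of 2.27 (1.82 to 2.84), against 1.63 (1.61 to 1.64) over all other PPARγ peaks. At least 2-fold higher MED1 was seen at 8 of the 19 peaks and at 29.8% of all PPARγ peaks, and at least 2-fold lower MED1 at 3 of the 19 and at 22.5% of all. At least 3-fold higher MED1 was seen at 4 of the 19 and at 19.5% of all. The median log2 ratio was 0.51 in the window and 0.00 over the list. The peak at 47.377 Mb supplied 59.5% of the net 711 units gained. Without it, the summed MED1 ratio of the other 18 was 1.78 (1.32 to 2.38), an interval that includes the 1.63 of the other peaks of the list.

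MED1 could be read at 4 single peaks, those with at least 20 MED1 tags. Of these, 3 were at least 2-fold higher, where 45.1% of all PPARγ peaks with that many MED1 tags were. At 47.377 Mb it was 612 units in rosiglitazone and 189 in DMSO (80 and 54 tags), a ratio of 3.24 (2.27 to 4.67), and ranked 28th of all PPARγ peaks in rosiglitazone and 110th in DMSO. At 47.384 Mb MED1 was 115 in rosiglitazone and 31.4 in DMSO, a ratio of 3.65 (1.50 to 9.46). At 47.355 Mb it was 229.6 and 101, a ratio of 2.27 (1.31 to 3.91). At 47.412 Mb it was 153 and 119, a ratio of 1.29 (0.703 to 2.30), whose interval includes 1. The interval lay above the list's 1.63 only at 47.377 Mb, 1 of 19, where 3.38% of all PPARγ peaks met that rule. At 47.390 Mb, where PPARγ was higher than at 47.355 Mb, MED1 was 7.65 units in rosiglitazone and 6.99 in DMSO, from only 1 and 2 tags, but a C/EBPα peak 475 bp away held 329 and 105 MED1 units.

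CBP, the acetyltransferase, was highest at another place in the cluster than PPARγ. The 19 PPARγ peaks summed to 612 CBP units in rosiglitazone and 378 in DMSO, from 101 and 171 tags, a ratio of 1.62 (1.25 to 2.08), against 1.38 (1.37 to 1.39) over all other PPARγ peaks, a value inside that interval. CBP was at least 2-fold higher at 4 of the 19 peaks (23.6% of all PPARγ peaks) and at least 2-fold lower at 5 (25.1% of all). It was at least 3-fold higher at 2 of the 19 (14.6% of all), and at least 2-fold higher at 1 of the 3 members with at least 20 CBP tags (22.7% of all peaks with that many). These shares lay near those of the list, and the median log2 ratio was 0.00 in both.

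A single peak carried most of the CBP difference. At 47.412 Mb, CBP was 291 units in rosiglitazone and 117 in DMSO (48 and 53 tags), a ratio of 2.48 (1.65 to 3.74), which was 74.2% of the net 235 units. Its CBP level ranked 11th of all 30588 PPARγ peaks in rosiglitazone and 117th in DMSO. The same peak ranked 171st on chromosome 19 by PPARγ score. At 47.377 Mb, where PPARγ and MED1 peaked, CBP was 109 units in rosiglitazone and 64.1 in DMSO, a ratio of 1.70 (0.891 to 3.17). At 47.355 Mb it was 66.7 and 75.2, a ratio of 0.888 (0.406 to 1.79), beside the MED1 ratio of 2.27 there. The interval lay above 1.38 only at 47.412 Mb, 1 of 19 members, where 2.86% of all PPARγ peaks met that rule. Without that peak the CBP ratio of the other 18 was 1.23 (0.874 to 1.72), whose interval includes 1.

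**Figure D3:**
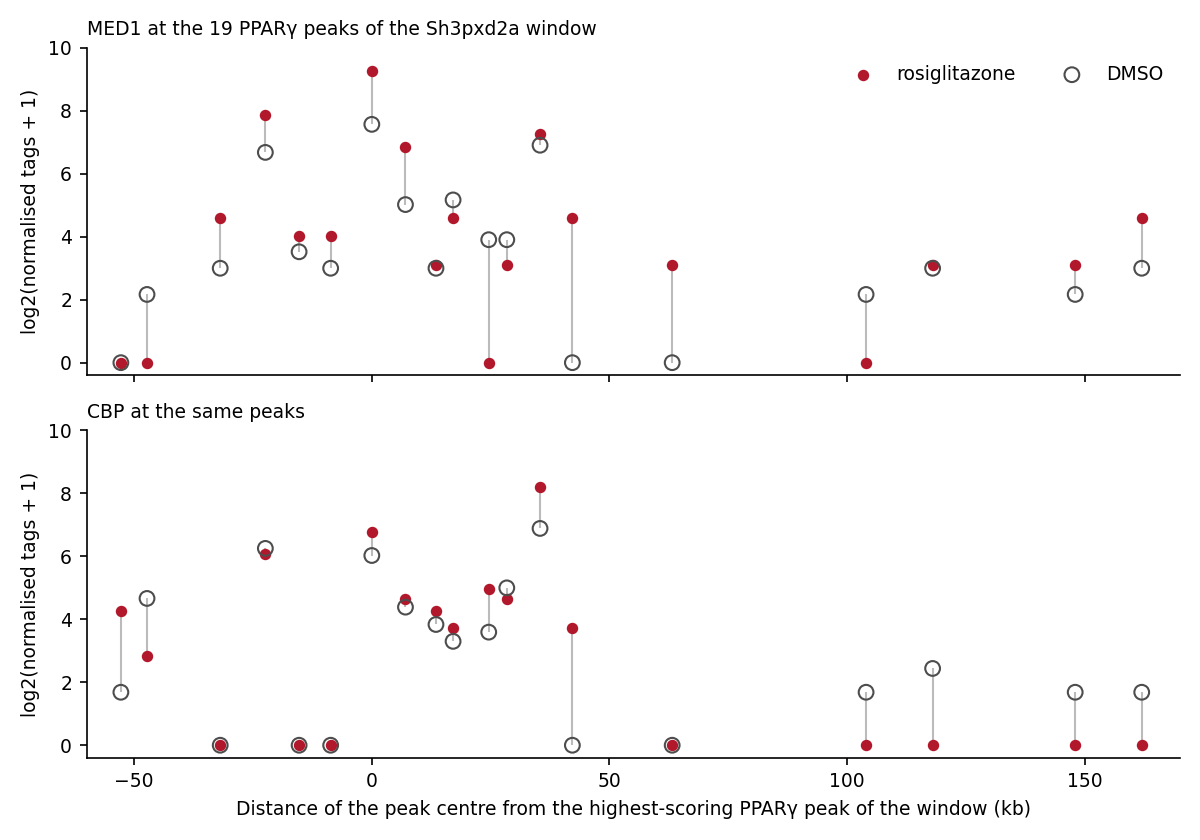
MED1 (top) and CBP (bottom) at the 19 PPARγ peaks, as log2 of normalised tags plus 1, against the distance in kb from the highest-scoring PPARγ peak, with rosiglitazone as filled points and DMSO as open rings, 1 library each. MED1 is highest at 0 kb, with 612 units in rosiglitazone and 189 in DMSO, and CBP at +35.4 kb, with 291 and 117; a ring around a point at 0 means no tag in either library.

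C/EBPα at its own peaks differed less than PPARγ did. The 18 C/EBPα peaks summed to 954 C/EBPα units in rosiglitazone and 755 in DMSO, from 749 and 342 tags, a ratio of 1.26 (1.11 to 1.44), against 1.01 (1.01 to 1.02) over all other C/EBPα peaks. At least 2-fold higher C/EBPα was seen at 3 of the 18 and at 15.9% of all C/EBPα peaks, and at least 2-fold lower at 1 of the 18 and at 9.25% of all. The median log2 ratio was 0.30 in the window and 0.07 over the list. C/EBPα has 1 sample per treatment, and its library in rosiglitazone was the deeper one.

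The highest C/EBPα peak of chromosome 19 by score lay in the window. At chr19:47394372-47394602 (47.394 Mb) C/EBPα was 329 units in rosiglitazone and 241 in DMSO (258 and 109 tags), a ratio of 1.37 (1.09 to 1.72). Its score of 295.6 ranked 53rd in the C/EBPα list, and its difference was 44.2% of the net 199 C/EBPα units gained over the 18 peaks. The next in score were chr19:47376867-47377097, with 140.1 units in rosiglitazone and 124 in DMSO and a ratio of 1.13 (0.814 to 1.59), and chr19:47412266-47412496, with 149 and 119 and a ratio of 1.25 (0.898 to 1.76). The fourth, chr19:47390829-47391059 (47.391 Mb), had 70.0 and 61.8, a ratio of 1.13 (0.706 to 1.86). At these last 3 the interval includes 1.

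A few C/EBPα peaks stood apart from the others of the window. At chr19:47383930-47384160 (47.384 Mb) C/EBPα was 38.2 units in rosiglitazone and 4.42 in DMSO, from 30 and 2 tags, a ratio of 8.65 (2.20 to 74.7). Its log2 ratio with 1 unit added to each value was 2.85. At or above that were 0.652% of C/EBPα peaks with at least 20 tags. The PPARγ peak with the highest PPARγ ratio lies at the same place. At chr19:47480980-47481210, outside the cluster, C/EBPα was 21.6 units and 4.42 (17 and 2 tags), a ratio of 4.90 (1.16 to 43.8). In the opposite direction, chr19:47402929-47403159 had 8.92 units in rosiglitazone and 28.7 in DMSO (7 and 13 tags), a ratio of 0.311 (0.105 to 0.838). PPARγ at that last peak was 9.15 units in rosiglitazone, from 11 tags, and had no tag in DMSO. That is 3.47 times a floor of 3 tags in the DMSO library, and the exact interval of the ratio starts lower, at 2.37.

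The interval of the C/EBPα ratio lay above the list's 1.01 at 3 of the 18 members, those at 47.384, 47.394 and 47.481 Mb, where 7.40% of all C/EBPα peaks met that rule. The other named members varied around the list. At chr19:47385788-47386018 (47.386 Mb) C/EBPα was 38.2 units in rosiglitazone and 17.7 in DMSO, a ratio of 2.16 (0.969 to 5.46). At chr19:47355496-47355726, chr19:47368237-47368467, chr19:47433946-47434176 and chr19:47361575-47361805 the C/EBPα ratios were 1.23, 1.30, 0.944 and 0.769, all with intervals that include 1. The remaining 7 members, that at 47.481 Mb among them, had fewer than 20 C/EBPα tags over both treatments.

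PPARγ was higher in rosiglitazone by any amount at 18 of 18 C/EBPα peaks, where 64.0% of all C/EBPα peaks were. It was at least 2-fold higher at 13 of the 18, against 30.8% of all, and the median log2 ratio was 1.61 in the window and 0.50 over the list. The sum was 741 units in rosiglitazone and 229.5 in DMSO, a ratio of 3.23 (2.81 to 3.72), against 1.58 (1.58 to 1.59) over the other C/EBPα peaks. Where the lists overlap, these are the same PPARγ fragments as above. The 10 C/EBPα peaks with no overlapping PPARγ peak gave 191 units in rosiglitazone and 59.8 in DMSO. Their ratio was 3.20 (2.43 to 4.26), against 1.47 (1.45 to 1.48) over the other C/EBPα peaks without overlap. Of the 191 units, 72.3 and 54.0 came from the peaks at 47.391 and 47.394 Mb. Their centres lie only 475 and 444 bp from a PPARγ peak, and each had 13.2 PPARγ units in DMSO. Of the 18 C/EBPα peaks, 9 had at least 20 PPARγ tags. Among these 9 the peak at 47.386 Mb had the lowest PPARγ ratio, 1.01 (0.585 to 1.76). PPARγ there was 24.9 units in rosiglitazone and 24.6 in DMSO. The next lowest, chr19:47345000-47345230, had 13.3 and 9.67, a ratio of 1.38 (0.599 to 3.28). At 47.386 Mb, by contrast, CBP was 91.0 units in rosiglitazone and 28.7 in DMSO, a ratio of 3.17 (1.41 to 7.23), and MED1 68.9 and 83.9, a ratio of 0.821 (0.336 to 1.83). That peak lies 1.83 kb from the centre of the nearest PPARγ peak, at 47.384 Mb, where the PPARγ ratio was 5.73.

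At C/EBPα peaks MED1 summed to 1661 units in rosiglitazone and 818 in DMSO, a ratio of 2.03 (1.68 to 2.45), against 1.43 (1.42 to 1.44) over the other C/EBPα peaks. CBP summed to 764 and 416, a ratio of 1.84 (1.46 to 2.32), against 1.25 (1.24 to 1.26). The CBP level at the C/EBPα peak at 47.412 Mb, 321 units in rosiglitazone and 128 in DMSO, ranked 7th of all 30519 C/EBPα peaks in rosiglitazone and 116th in DMSO. These sums also count fragments that the overlapping PPARγ peaks hold.

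Sharing between the lists was compared with the background. At least 1 bp in common with a C/EBPα peak was found for 8 of the 19 PPARγ peaks, against 36.1% of all PPARγ peaks, and the reverse for 8 of the 18 C/EBPα peaks, against 36.2% of all. Among members with a score above the list median, however, 3 of 10 PPARγ peaks were shared (30.0%), against 49.6% of all such PPARγ peaks. With that limit 5 of 10 C/EBPα peaks were shared, against 48.4% of all such C/EBPα peaks. A C/EBPα centre within 500 bp was found for 5 of those 10 PPARγ peaks, against 56.2% of all such peaks. The relation to the list thus turned with the score limit at PPARγ peaks but not at C/EBPα peaks, and rests on few peaks. The shared pairs had centres 3 to 91 bp apart. The 8 shared PPARγ peaks had a summed PPARγ ratio of 3.47 (2.93 to 4.13) and the 11 others 1.84 (1.54 to 2.21), while over the rest of the list these classes had 1.62 (1.62 to 1.63) and 1.44 (1.43 to 1.44). The shared class includes the peak at 47.377 Mb. All 8 shared peaks were at least 2-fold higher in PPARγ, against 34.0% of all shared PPARγ peaks, and 5 of the 11 others were, against 27.7% of all that were not shared. The shared peaks at 47.345, 47.362, 47.368, 47.481 and 47.495 Mb had only 4 to 6 PPARγ tags in DMSO. Their intervals start at 0.949, 1.13, 1.49, 1.22 and 0.867, below the 1.62 above. The interval also starts below 1.62 at 47.412 Mb (1.39), but not at 47.377 and 47.384 Mb. Since the locus was chosen on the PPARγ contrast, these counts only describe it.

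C/EBPα tags were also counted under the PPARγ peaks. The 19 PPARγ peaks summed to 408 C/EBPα units in rosiglitazone and 314 in DMSO, a ratio of 1.30 (1.06 to 1.60), against 0.984 (0.978 to 0.989) over the other PPARγ peaks. C/EBPα was at least 2-fold higher at 7 of the 19, against 24.5% of all PPARγ peaks, and at least 2-fold lower at 4, against 18.7% of all. The next 3 peaks are the members where the interval of the ratio lay above 1. The share of all PPARγ peaks that met this rule was not counted. At the PPARγ peak at 47.384 Mb C/EBPα was 35.7 units in rosiglitazone and 4.42 in DMSO (28 and 2 tags), a ratio of 8.08 (2.04 to 70.0). At 47.390 Mb it was 29.3 and 4.42 (23 and 2 tags), a ratio of 6.63 (1.64 to 58.0). At chr19:47480911-47481097 it was 16.6 and 2.21 (13 and 1 tags), a ratio of 7.50 (1.13 to 319). With 1 unit added to each value, the log2 ratio was 2.76 at 47.384 Mb and 2.48 at 47.390 Mb. Of PPARγ peaks with at least 20 C/EBPα tags, 1.04% and 1.51% were at or above these. At 47.377 and 47.412 Mb, where C/EBPα was 124 and 129 units in rosiglitazone against 113 and 102 in DMSO, the ratios were 1.10 (0.774 to 1.57) and 1.27 (0.885 to 1.84). The high ratios rest on 1 or 2 DMSO tags each.

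In 3 places a PPARγ and a C/EBPα peak stood side by side without overlap, with centres at most 600 bp apart. The least occupied, at chr19:47324101-47324287 and chr19:47323496-47323726, have centres 583 bp apart. PPARγ was 17.5 units in rosiglitazone and 14.1 in DMSO in the PPARγ window, and 2.49 and 0 in the C/EBPα window, and MED1 had no tag in the PPARγ window and 3 and 5 tags in the C/EBPα window. The PPARγ peak at 47.394 Mb and the top C/EBPα peak have centres 444 bp apart. In the PPARγ window (186 bp wide) PPARγ was 62.4 units in rosiglitazone and 51.9 in DMSO, a ratio of 1.20 (0.843 to 1.72). In the C/EBPα window (230 bp) it was 54.0 and 13.2, a ratio of 4.10 (2.31 to 7.74). C/EBPα was 1.27 and 2.21 units in the PPARγ window, 1 tag each, against the 329 and 241 given above next door. Over the genome, 2240 such pairs lie within 600 bp in a list of 30588 PPARγ peaks, beside the 3 pairs for 19 PPARγ peaks here. Of the 947 with at least 20 PPARγ tags in both windows, 204 (21.5%) had a PPARγ log2 ratio higher by at least 1 in the C/EBPα window and 167 had one higher by at least 1 in the PPARγ window.

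In the last pair, the PPARγ peak at 47.390 Mb and the C/EBPα peak at 47.391 Mb have centres 475 bp apart. PPARγ was of like size in both, 82.3 units in rosiglitazone and 25.5 in DMSO in the PPARγ window, and 72.3 and 13.2 in the C/EBPα window, where the ratio was 5.48 (3.15 to 10.2). MED1 was nearly all in the C/EBPα window, with 329 units in rosiglitazone and 105 in DMSO (43 and 30 tags), a ratio of 3.14 (1.92 to 5.18), against the 1 and 2 tags in the PPARγ window. Of the 1126 pairs in the genome with at least 20 MED1 tags, 77 (6.84%) had at least 10 times more MED1 in the C/EBPα window, and 45 at least 10 times more in the PPARγ window. Since tags were counted in narrow windows, MED1 beside a PPARγ peak is not counted for it.

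**Figure D4:**
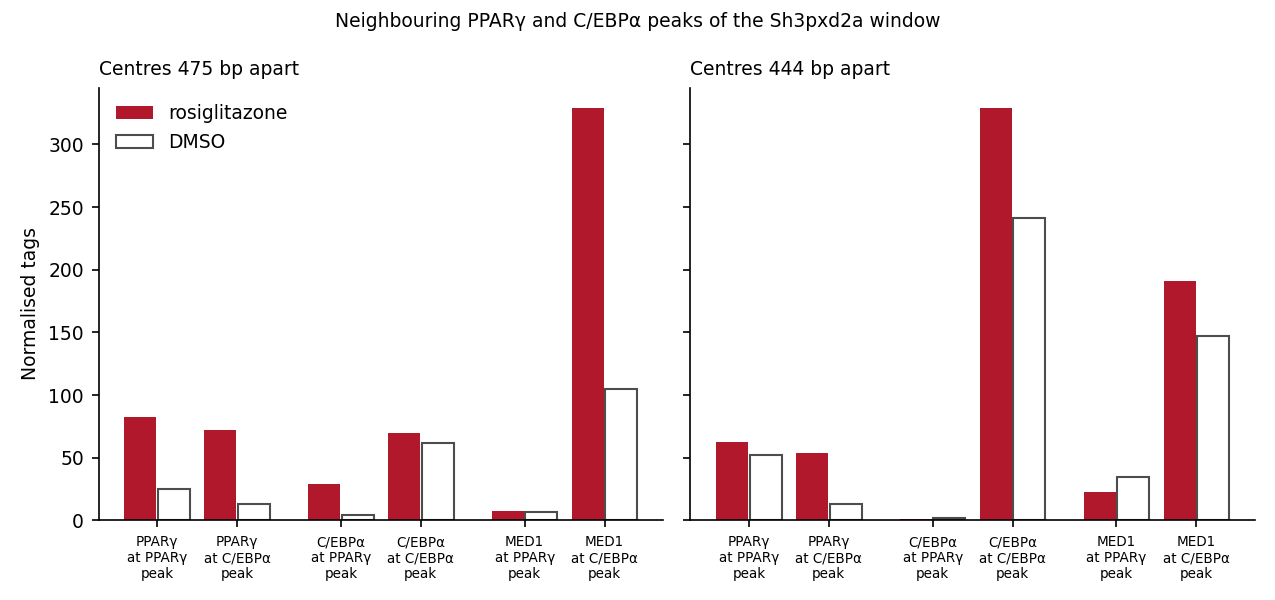
PPARγ, C/EBPα and MED1, in normalised tags, in adjacent PPARγ and C/EBPα peak windows 475 bp (left) and 444 bp (right) apart. Filled bars are rosiglitazone and open bars are DMSO, 1 column each. The pair 583 bp apart is not drawn. On the left MED1 stands at 329 and 105 units in the C/EBPα window and at 7.65 and 6.99 in the PPARγ window; on the right C/EBPα stands at 329 and 241 in the C/EBPα window.

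The cluster was compared with the other PPARγ clusters of at least 5 peaks by summed ratios. Its PPARγ ratio of 2.86 ranked 56th of 477, where the median cluster had 1.76 and the highest 5.56. Its MED1 ratio of 2.29 (1.82 to 2.88) ranked 111th (median 1.67), its C/EBPα ratio of 1.33 (1.08 to 1.65) 127th (median 1.04) and its CBP ratio of 1.73 (1.33 to 2.24) 137th (median 1.37). In each of the 4 the cluster lay above the median of the clusters without being at the top.

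The clusters whose 4 log2 ratios were nearest to those of the Sh3pxd2a cluster, among 473 with all ratios finite, were found by Euclidean distance. The nearest, at 0.231, was chr9:102620003-102657772 with 8 peaks and ratios of 2.64 for PPARγ, 1.31 for C/EBPα, 2.59 for MED1 and 1.62 for CBP. Next, at 0.279, was chr16:4875936-4887292 with 5 peaks and ratios of 3.17, 1.31, 2.40 and 2.02 in the same order. The third, at 0.283, was chr19:5956270-5989290 with 7 peaks and ratios of 3.00, 1.37, 2.09 and 1.47. Their intervals overlap those of the Sh3pxd2a cluster for every factor, so at this depth their order of likeness is not fixed.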

How the data were processed

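ChIP-seq of PPARγ, C/EBPα, MED1 and CBP was used from 2 peak lists. The submitters' processing notes name mm9 as the build and Bowtie, FastQC, edgeR and HOMER as tools. Their versions and settings were not given in the sources used here. The authors deposited a normalised tag signal in 8 columns, a score per peak and a focus ratio, a fraction per peak. Peaks are listed once per factor, and whether replicates were pooled is not stated. BRL, a code name for rosiglitazone, heads one MED1 column, which was taken as the only MED1 sample with that drug. RNA polymerase II and input were not analysed here.

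In each column the deposited signal rose in equal steps (100% of values whole within 0.02 steps), so tags were recovered. If the values were scaled to 10 M tags, which no source states, depth was 12.0 M in rosiglitazone and 11.4 M in DMSO for PPARγ, 7.85 and 4.53 M for C/EBPα, 1.31 and 2.86 M for MED1, and 1.65 and 4.52 M for CBP. Ratios use the authors' scaling. Log2 ratios used a pseudocount of 1. Intervals were exact Clopper-Pearson, tried on simulated independent tags at the levels of the PPARγ columns. Such tags hold no spread beyond counting, and the sparser MED1 and CBP columns were not simulated. With 1 column per treatment no test was run. Named peaks were, per list, up to 12 of the highest score with at least 20 tags of their own factor, plus the highest and lowest ratio of each factor with at least 20 tags, the members at the edges, and the 3 nearest clusters. Other peaks that are named were chosen after their values were seen. The window, members and lists were chosen with earlier results of these data known. Alternatives were other pseudocounts, folds, tag minimums, windows, centrings and overlaps. Gene names are from RefSeq for GRCm38.p6. Python 3.11.15, NumPy 2.4.6, pandas 2.3.3, SciPy 1.17.1 and matplotlib 3.10.9 were used.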

Additional observations from a re-analysis of the deposited data

How the results depend on the processing

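Of 99 recomputed values, 81 were classed as the same as the main value, 18 as moved and 0 as reversed. These classes concern the value in the window, not its relation to the rest of the list. Values classed as the same could still differ, as median log2 ratios at PPARγ peaks with at least 20 tags did. The median was 1.43 against 0.51 for MED1, and 0.76 against 0.00 for CBP. Without the member richest in tags, the summed ratio at the PPARγ peaks was 2.28 for PPARγ, 1.78 for MED1 and 1.23 for CBP. Divided by the ratio over all peaks of the list, it was 1.72 for PPARγ, 1.40 for MED1 and 1.17 for CBP (0.909 to 1.51, which includes 1), and at the C/EBPα peaks 2.04 for PPARγ and 1.42 for MED1. The count of PPARγ peaks at least 2-fold higher in PPARγ, 13 of 19, was 8 after centring on the median of the list (15.6% of all PPARγ peaks), 7 at a fold of 3 (14.0%) and 4 by the interval rule (12.6%). For MED1 the count of 8 was 3 of the 4 peaks with at least 20 tags (45.1% of all such peaks), 4 at a fold of 3 (19.5%) and 1 by the interval rule (3.38%). For CBP the count of 4 was 1 of the 3 peaks with at least 20 tags (22.7%), 2 at a fold of 3 (14.6%) and 1 by the interval rule (2.86%). Sharing with C/EBPα, 8 of 19 (42.1%, against 36.1% of all PPARγ peaks), was 3 of the 10 members with a score above the median of the list (30.0%, against 49.6%). For C/EBPα peaks the same limit gave 5 of 10, against 48.4% of all such peaks. The interval rule and the restriction to the cluster were added after the data were seen. No paired analysis was possible because the columns name no replicate and each factor has 1 column per treatment.

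The depth of MED1 and CBP limits single peaks, of which 4 and 3 had at least 20 tags. Differences in enrichment between the libraries of a factor and the effect of rosiglitazone cannot be told apart with 1 column per treatment.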
